A study of Drosophila melanogaster with 7 samples.

Results

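Ellipsoid body (EB) ring neurons that express *caup* and *ara* were examined in single-cell RNA-seq of the adult *Drosophila* brain. A cell was taken as a member when it held at least 1 UMI of *Poxn*, 3 of *Gad1* and 1 of *cv-c*, no UMI of *repo* and a sum of at least 2 UMIs of *caup* and *ara*. UMIs are unique molecular identifiers, each of which stands for 1 captured RNA molecule. Barcodes were kept when 200 or more genes were seen and no more than 30% of UMIs were mitochondrial, and of these 157482 barcodes 1103 passed the ring neuron gate (the conditions on *Poxn*, *Gad1*, *cv-c* and *repo*) and 586 of these were members. Another 466 cells of the gate had no UMI of either gene and served as the comparison (caup+ara=0 cells), and 51 cells with 1 UMI entered neither class. Because these genes chose the cells, their own levels are given as a description and were not tested.

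The brains came from male flies of 10 inbred lines of the *Drosophila* genetic reference panel (DGRP), 4 to 9 days old according to the deposited table. Central brains of 5 to 9 lines were pooled in each of 7 runs, and each line of a run stood for 1 behavioral condition, either spontaneous sleep (S) or wakefulness (W), sleep deprivation (SD), recovery sleep (RS), a yoked control (YC-S) or sleep under gaboxadol (GBX-S). Run 1 held flies of ZT8 and ZT20, runs 2 and 3 of ZT2 and ZT20, run 4 of ZT2 and ZT14, run 5 of ZT20 alone, and runs 6 and 7 of ZT8 alone. All brains were dissected under actinomycin D, which blocks transcription. Each run is 1 library and a technical replicate, the runs share lines, and no table used here joins a cell to its line, so that sleep, wakefulness and time were not compared and p-values measure the spread between these pools.

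Ring neurons are GABAergic cells whose axons form the concentric rings of the EB in the central complex, a region that takes part in visual orientation and in the control of sleep. *caup*, *ara* and *mirr* are the Iroquois genes, neighbouring homeobox genes best known for patterning the fly's eye, notum and wing. *Poxn* is a Pax gene that ring neurons are known to express, *Gad1* makes GABA, and *repo* marks glia. Serotonin acts on neurons through several receptors, of which *5-HT7* raises cAMP, *5-HT1A* and *5-HT1B* lower it and *5-HT2A* and *5-HT2B* act through calcium.

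The 7 runs held 49949595 to 311443505 UMIs each. Members had a median of 7502 to 11835 UMIs per cell in single runs and caup+ara=0 cells a median of 9425 to 12259. All members had a UMI of the synaptic gene *nSyb* and 98.3% one of the neuronal gene *elav*. The doublet caller scrublet marked 60 members (10.2%), 44 caup+ara=0 cells (9.44%) and 14.3% of the other GABAergic neurons defined further on. Doublets that the study removed by genotype were not taken out here. No member shared its barcode with a member of another run, whereas 24 matches of a member's barcode to another kept cell of a different run were found among all pairs of runs. A UMI of *VAChT* or *VGlut*, the vesicular transporters of acetylcholine and glutamate, was present in 77.1% of members and 75.1% of caup+ara=0 cells. After thinning to 2000 UMIs, *VAChT* was present in 23.1% ± 6.51 (SD, n = 7 runs) of members and in 19.5% ± 10.9 of glia (barcodes with at least 2 *repo* and no *Gad1* UMIs), which should lack it. *VGlut* was present in 12.4% ± 9.15 of members and 18.7% ± 10.1 of glia, so that neither share was read as expression by members, and how these UMIs arose was not tested. Median depth in the runs was 3466 to 7442 UMIs for these glia.

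Members made up 54.3% ± 5.24 (SD, n = 7 runs) of the ring neuron gate. Their numbers in runs 1 to 7 were 62, 163, 156, 89, 37, 63 and 16, beside 48, 119, 118, 96, 29, 47 and 9 caup+ara=0 cells. The share lay between 54.4% and 61.5% in all runs except run 4, where it was 43.8% (95% exact binomial interval 36.9% to 51.0%). Run 7, with 16 members, has the widest interval, 40.6% to 79.8%, and these intervals cover counting error only. *caup* and *ara* were not limited to ring neurons, since 7537 of the 8123 barcodes with a sum of at least 2 (92.8%) lay outside the gate, and 50.7% of those had at least 3 *Gad1* UMIs.

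*caup* and *ara* chose the members, and their UMIs describe them. The median of members was 14 UMIs of *caup* and *ara* together, 9 of *caup* and 5 of *ara*, and 429 members (73.2%) had 10 or more, as the histogram of UMIs per cell shows. Both genes were seen in 539 members (92.0%), *caup* alone in 37 and *ara* alone in 10. Members had 1020, 702, 664, 617, 1021, 799 and 1322 CPM (UMIs of the gene over all UMIs of the class, scaled to a fixed total) of *caup* in runs 1 to 7 and 429, 360, 431, 391, 503, 354 and 457 CPM of *ara*. Where gate cells were chosen by *caup* alone, those with at least 2 *caup* UMIs (556 cells) held 427 ± 49.9 CPM of *ara* and those with none (503 cells) 7.81 ± 5.36 CPM (SD, n = 7 runs), so that the genes occurred in the same cells. *caup* also stood at 34.5 to 83.8 CPM in the other GABAergic neurons.

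**Figure D1:**
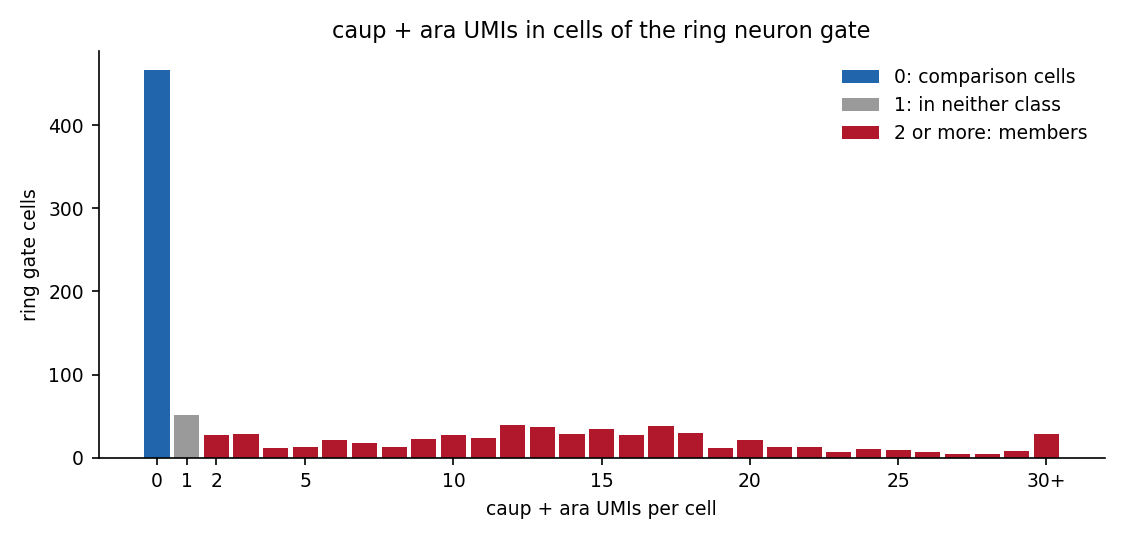
Number of ring gate cells (vertical axis) by their UMIs of *caup* and *ara* together (horizontal axis), with all cells of 30 or more UMIs in the last bar. The 466 cells at 0 form the comparison, the 51 cells at 1 enter neither class, and 429 of the 586 members have 10 or more UMIs.

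Across the genome, 236 genes were higher in members than in caup+ara=0 cells of the same runs and 268 were lower, 4.68% and 5.31% of 5047 genes tested and together 9.99% (edgeR quasi-likelihood test on UMIs summed per run and class, with the run as a block, at an adjusted p of 0.05). Without the block, 287 genes passed. The median log2 difference of all tested genes was 0.0031, and 5.98% of tested genes were higher and 5.39% lower in members in all 7 runs. Serotonin receptors, *Nos* and several cell surface genes were among the genes higher in members, and *mirr*, the peptide *sNPF* and the receptor *Pdfr* among the lower ones. Levels below are CPM with TMM scaling, as means over 7 runs with their SD, and log2 differences carry their standard error (SE).

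Of the serotonin receptors, *5-HT7*, *5-HT2B*, *5-HT1A* and *5-HT1B* were higher in members and *5-HT2A* was lower. *5-HT7* stood at 695, 598, 588, 483, 673, 448 and 510 CPM in members of runs 1 to 7 and at 35.6, 48.9, 47.7, 43.1, 53.2, 35.0 and 48.7 CPM in caup+ara=0 cells. The lowest run of members lay far above the highest run of the comparison, with a log2 difference of 3.68 ± 0.09 (SE; edgeR adjusted p = 3.37e-13). *5-HT2B* was 117 ± 16.7 against 10.6 ± 5.73 CPM, a log2 difference of 3.24 ± 0.16 (edgeR adjusted p = 1.71e-09), and *5-HT1A* 233 ± 35.8 against 75.0 ± 45.8 CPM, 1.49 ± 0.21 (edgeR adjusted p = 8.38e-05), each higher in 7 of 7 runs. *5-HT1B* was higher at 50.6 against 28.6 CPM, and *5-HT2A* lower at 98.8 against 179 CPM, although 2 runs had the opposite order for *5-HT2A*. At 2000 UMIs per cell, *5-HT7* was present in 65.6% ± 6.81 of members, 8.67% ± 1.18 of caup+ara=0 cells and 6.02% ± 0.76 of glia (94.1%, 34.6% and 15.5% without thinning). The caup+ara=0 cells were thus near the level of glia for *5-HT7*, and the same held for *5-HT2B*, present in 21.6% ± 3.91, 2.19% ± 1.15 and 1.59% ± 0.53 (63.6%, 9.39% and 4.34% without thinning).

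**Figure D2:**
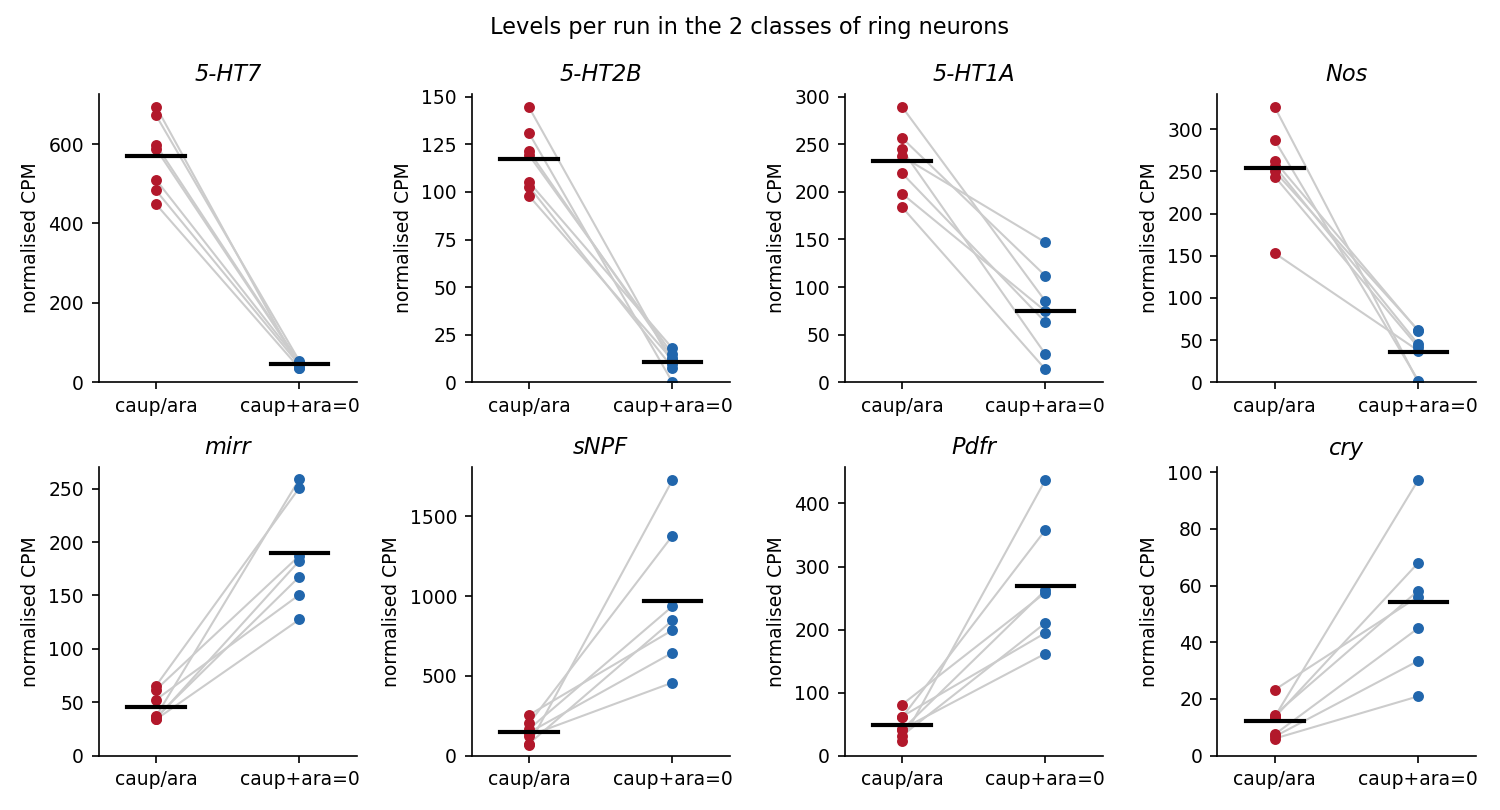
TMM-scaled CPM of each gene (vertical axes, linear from 0) in members and caup+ara=0 cells, with a point per run, grey lines joining the classes of a run and black bars for the mean of 7 runs. *5-HT7*, *5-HT2B*, *5-HT1A* and *Nos* are higher in members in every run, and *mirr*, *sNPF*, *Pdfr* and *cry* are lower in every run.

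Of 17 listed monoamine receptors, the serotonin receptors included, 16 were tested, of which 5 were higher, 6 lower and 5 not called, with a median log2 difference of −0.29. Over all tested genes 4.68% were higher and 5.31% lower. *Octbeta2R*, an octopamine receptor, was the only higher one that does not bind serotonin, at 167 against 95.5 CPM. *Oct-TyrR* had the largest decrease, 18.3 against 48.3 CPM, and the dopamine receptors *Dop1R1* (151 against 237 CPM) and *Dop1R2* (28.6 against 63.3 CPM) were lower too. *Dop2R* had the highest level of those not called, 862 against 1121 CPM, with a log2 difference of −0.35 ± 0.13 (edgeR adjusted p = 0.13). *Oamb*, an octopamine receptor, stood at 292 ± 35.1 in members and 335 ± 141 CPM in caup+ara=0 cells and was not called either.

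*Nos*, the nitric oxide synthase gene, was at 250, 256, 244, 153, 326, 287 and 262 CPM in members and at 61.5, 44.8, 41.5, 37.3, 0, 1.94 and 60.8 CPM in caup+ara=0 cells. The lowest run of members lay above the highest run of the comparison, with a log2 difference of 2.71 ± 0.27 (edgeR adjusted p = 2.78e-06). In caup+ara=0 cells 61.7% of the *Nos* UMIs came from 10 cells, whereas 354 members (60.4%) had a UMI of it.

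*mirr*, the Iroquois gene that the gate does not use, went the opposite way to *caup* and *ara*. It was at 36.8, 34.0, 61.8, 35.9, 52.4, 65.5 and 34.5 CPM in members and at 259, 127, 187, 168, 151, 251 and 182 CPM in caup+ara=0 cells. No run of members reached the lowest run of the comparison, with a log2 difference of −1.98 ± 0.13 (edgeR adjusted p = 2.58e-08). Thinned to 2000 UMIs, 4.74% ± 0.91 of members and 27.3% ± 7.03 of caup+ara=0 cells held a *mirr* UMI, beside 2.20% ± 0.61 of glia (14.7%, 56.2% and 4.82% without thinning). The 10 members with most *mirr* held 40.1% of the class's *mirr* UMIs. The 3 genes lie on one strand of chromosome 3L (BDGP6), *ara* at 12580672 to 12596018, *caup* at 12609631 to 12621798 and *mirr* at 12693639 to 12710249. Between *caup* and *mirr*, 6135 bases after the end of *caup* on the same strand, lies the long non-coding RNA *CR32111* (12627934 to 12648280), with 66.8 ± 15.4 CPM in members and 7.65 ± 13.2 CPM in caup+ara=0 cells, a log2 difference of 4.20 ± 0.35 (edgeR adjusted p = 3.8e-07; 4.97 without run 4). Reads that run on from *caup* cannot be told apart from *CR32111* in these counts.

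Neuropeptides and their receptors were called in both directions, beside 9.99% of all tested genes. Of 13 tested neuropeptide genes 1 was higher and 3 were lower, with a median log2 difference of −0.31, and of 13 tested peptide receptors 3 were higher and 5 lower, with a median of −0.35. *sNPF*, short neuropeptide F, was at 75.0, 126, 145, 202, 166, 255 and 68.9 CPM in members and at 848, 458, 645, 1379, 936, 788 and 1727 CPM in caup+ara=0 cells. Every run was lower in members, with a log2 difference of −2.47 ± 0.20 (edgeR adjusted p = 3.31e-07), and the 10 cells with most *sNPF* held 45.8% of its UMIs in members. The tachykinin gene *Tk* was lower at 11.6 against 121 CPM, although 87.8% of its UMIs in caup+ara=0 cells came from 10 cells, and *Nplp1* was lower at 189 against 442 CPM. *Dh31*, diuretic hormone 31, was the highest peptide in members, 4790 ± 1290 against 3833 ± 1290 CPM, a log2 difference of 0.35 ± 0.09 (edgeR adjusted p = 0.011, higher in 7 of 7 runs). *Ms* and *ITP* did not pass, and 96.5% of the *Ms* UMIs of members and 98.0% of the *ITP* UMIs of caup+ara=0 cells lay in 1 cell each.

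Among the peptide receptors, *ETHR*, the receptor of ecdysis triggering hormone, was 38.2 ± 16.0 against 1.66 ± 2.38 CPM, a log2 difference of 3.92 ± 0.34 (edgeR adjusted p = 5.79e-07; 4.70 without run 4), and was seen in 144 members and 10 caup+ara=0 cells. *CNMaR* (CG33696 in the files), the receptor of CNMamide, was higher at 82.3 against 25.5 CPM, and *AstA-R1*, an allatostatin A receptor, at 35.7 against 18.2 CPM. *Pdfr*, the receptor of the clock peptide PDF, was at 31.6, 41.9, 80.8, 40.6, 23.3, 60.5 and 62.0 CPM in members and at 210, 162, 259, 262, 437, 358 and 195 CPM in caup+ara=0 cells. The classes did not overlap in *Pdfr*, with a log2 difference of −2.33 ± 0.18 (edgeR adjusted p = 1.4e-07). *TkR99D*, *Dh44-R1*, *Dh31-R* and *Dh44-R2* were lower too, at 6.55 against 29.6, 15.5 against 50.9, 34.0 against 77.9 and 47.6 against 77.3 CPM. The study had pictured driver lines of *5-HT7*, *5-HT2B*, *5-HT1A*, *Pdfr* and *cry* after comparing ring neuron clusters of these same runs, so that the differences of these genes are not independent evidence. It saw *cry* and *Pdfr* drivers in neurons that project to the R5 ring of the EB. From these it identified its cluster with more *cry* and *Pdfr* as R5 neurons. Whether caup+ara=0 cells are R5 neurons was not tested.

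*cry*, the blue light receptor of the clock, had low levels, 12.2 ± 6.08 CPM in members and 54.2 ± 24.8 CPM in caup+ara=0 cells, with a log2 difference of −2.11 ± 0.17 (edgeR adjusted p = 3.56e-07) and the same order in 7 of 7 runs. Its exons overlap a non-coding RNA on the same strand, and glia held *cry* in 10.5% ± 4.06 of cells at 2000 UMIs, beside 2.18% ± 1.06 of members and 8.41% ± 2.76 of caup+ara=0 cells (25.6%, 10.1% and 25.6% without thinning). *per* was lower as well, with a log2 difference of −0.74 ± 0.16 (edgeR adjusted p = 0.0057, lower in 7 of 7 runs). The other 5 tested clock genes were not called, among them *Pdp1*, the highest, at 1680 against 1616 CPM. Over all tested genes 9.99% were called. For *tim* no test is given. It was present in 3.66% ± 1.47 of members, 1.55% ± 1.04 of caup+ara=0 cells and 28.7% ± 9.49 of glia at 2000 UMIs (13.5%, 6.23% and 48.4% without thinning), the opposite order to *per* between the ring classes. The summed level of 14 glial markers was 257 to 794 CPM in the runs of members (median 349) and 152 to 705 CPM in caup+ara=0 cells (median 534). *ltl* was at 0 in all members, and none of the 7 tested glial markers was called (edgeR), beside 9.99% of all tested genes. The part of glial RNA in the *cry* difference was not tested.

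**Figure D3:**
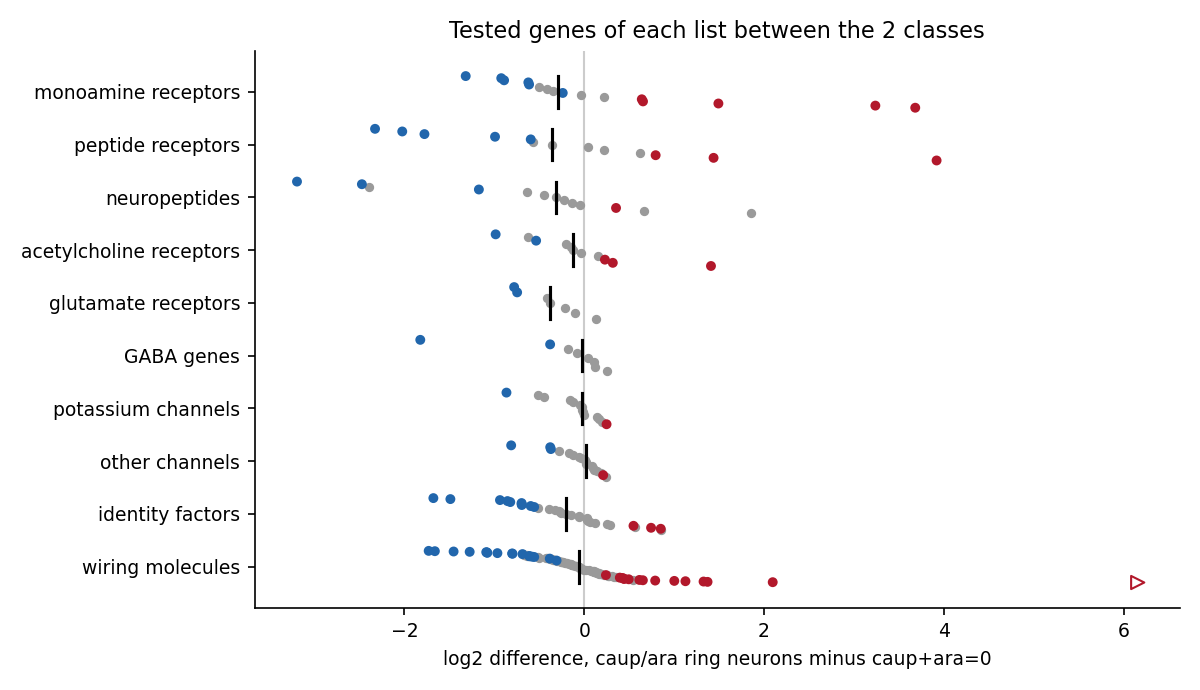
Log2 difference between members and caup+ara=0 cells (horizontal axis) of each tested gene in 10 lists (rows), red where higher and blue where lower at an adjusted p of 0.05, grey where not called, with black bars for list medians. The open triangle is the lower bound of *DIP-iota*, which has no UMI in caup+ara=0 cells, and the next largest increases are those of *ETHR*, *5-HT7* and *5-HT2B*.

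Acetylcholine receptors moved in both directions, and the called GABA and glutamate genes were all lower, beside 9.99% of all tested genes called. Of 11 tested acetylcholine receptors 3 were higher and 2 lower, with a median log2 difference of −0.13. *nAChRalpha7*, a nicotinic subunit, was higher at 2403 ± 281 against 938 ± 261 CPM, a log2 difference of 1.41 ± 0.08 (edgeR adjusted p = 1.17e-08). *nAChRalpha3* was lower at 73.0 against 159 CPM and *nAChRalpha5* at 806 against 1182 CPM, and *nAChRalpha6* had the highest level of those not called, 2008 against 2228 CPM. Of 8 tested GABA genes, *GABA-B-R3*, a metabotropic GABA receptor, was lower at 60.5 against 232 CPM and *Rdl*, the main subunit of the ionotropic GABA receptor, at 6648 against 8819 CPM, while the vesicular transporter *VGAT* was not called at 177 against 211 CPM. Of 7 tested glutamate receptors only *GluRIA* and *GluRIB* were called, both lower.

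Ion channels were called in both directions, beside 9.99% of all tested genes. Of 14 tested potassium channels *Sh* was higher, 2016 against 1687 CPM, and *SLO2* (CG42732 in the files) lower, 54.2 against 119 CPM. Of 18 tested sodium, calcium, leak and cyclic nucleotide channels *para* was higher (2238 against 1946 CPM) and *Ca-alpha1T*, *Ih* and *Teh1* were lower, with the largest difference for *Ca-alpha1T*, 315 against 571 CPM. In the simulated data made for this comparison, 74.6% of genes changed 1.5-fold and 97.3% of genes changed 2-fold were recovered, so that smaller differences could be missed. The changed genes all had at least 20 CPM in the comparison class. Recovery of lower genes, or of genes whose UMIs lie in few cells, was not measured.

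Cell surface and wiring molecules formed the longest list, with 99 genes tested, 15 higher and 17 lower, and a median log2 difference of −0.06. The shares over all tested genes were 4.68% higher and 5.31% lower. The DIP and Dpr proteins are immunoglobulin-domain proteins that bind each other across synaptic partners. *DIP-iota* (CG11320 in the files) had 27, 92, 51, 29, 12, 44 and 16 UMIs in the members of runs 1 to 7, in 118 cells, and 0 UMIs in every run of the caup+ara=0 cells. Its level of 35.4 CPM over all members was at least 71.3-fold higher than the 0.497 CPM that 3 UMIs over the whole comparison class would give. *DIP-delta* (CG34391 in the files) was higher at 227 ± 30.6 against 41.8 ± 27.3 CPM, a log2 difference of 2.10 ± 0.19 (edgeR adjusted p = 7.67e-07), and its known binding partner *dpr12* at 631 ± 47.3 against 233 ± 56.9 CPM, 1.37 ± 0.10 (edgeR adjusted p = 8.29e-08). *side-VIII* (CG12484 in the files) and *beat-IIIb*, of the side and beat families of axon guidance proteins, were higher at 119 against 36.8 and 217 against 89.6 CPM. *klg*, an adhesion protein, had the largest decrease, 329 ± 60.9 against 1132 ± 199 CPM, a log2 difference of −1.73 ± 0.11 (edgeR adjusted p = 3.49e-08), followed by *dpr13* at 84.3 against 313 CPM and *DIP-beta* (CG42343 in the files) at 32.7 against 90.6 CPM. *Fas2*, another adhesion protein, had the highest level of those not called, 881 against 916 CPM.

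Of 33 tested transcription factors and RNA-binding proteins of neuron identity, 3 were higher and 10 lower, with a median log2 difference of −0.21, beside 4.68% and 5.31% of all tested genes. The zinc finger gene *mamo* was higher at 2921 ± 358 against 1634 ± 187 CPM, a log2 difference of 0.85 ± 0.06 (edgeR adjusted p = 6.81e-08), and *jim* and *pros* were higher at 5826 against 3458 and 12796 against 8838 CPM. *bab2* and *bab1*, a pair of neighbouring genes, were lower at 24.5 against 75.7 and 14.3 against 46.2 CPM, and so were *Lim1* (625 against 1035 CPM), *SoxN* (401 against 601 CPM), *Eip93F* (844 against 1303 CPM) and the RNA-binding protein gene *Imp* (185 against 352 CPM). The exons of *Imp* overlap a long non-coding RNA on the same strand, so that the UMIs counted for *Imp* are uncertain here and below. *chinmo* had the highest level of those not called, 979 against 1003 CPM.

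Outside the lists, *CG14354*, *CG32091*, *CG14545*, *CG10738* and *CG15210* were among the 15 largest increases, with 174, 107, 30.7, 39.2 and 34.5 CPM in members and at most 13.8 CPM in caup+ara=0 cells. *kibra*, a gene of the Hippo growth pathway, was 55.5 against 4.85 CPM, *Rrp5* (CG5728 in the files), which serves ribosome assembly, 132 against 20.7 CPM, *CARPA* (CG1402 in the files) 254 against 36.2 CPM and *CG32669* 42.2 against 8.34 CPM. *CG30053*, *trol*, *CG15537* and *CG1572* were the largest decreases, at 10.4 against 170, 13.9 against 326, 31.3 against 609 and 15.6 against 203 CPM. *CG30053*, *CG15537* and *CG1572* had a UMI in 20.4%, 23.0% and 40.8% of caup+ara=0 cells, beside 1.88%, 14.3% and 6.31% of members. Of the *CG15537* UMIs of caup+ara=0 cells, 49.1% came from 10 cells. *trol*, the basement membrane protein perlecan, was present in 64.8% ± 11.3 of glia at 2000 UMIs, beside 13.6% ± 6.23 of caup+ara=0 cells and 2.58% ± 2.34 of members (76.3%, 20.5% and 9.57% without thinning), and the part of glial RNA in its difference was not tested. The remaining decreases of this group were *CG13055* (7.63 against 65.2 CPM), *CR44366* (26.6 against 174 CPM), *bma* (CG34356 in the files, 150 against 694 CPM), *scaf* (47.0 against 245 CPM), *CG43658* (46.9 against 228 CPM), *Rab11*, a GTPase of recycling endosomes (205 against 862 CPM), and *CG43373*, whose exons overlap another gene (7.76 against 35.3 CPM). All of these passed an adjusted p of 0.05 in the same direction in 7 of 7 runs.

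Levels of *5-HT7*, *mirr* and *Pdfr* are given by the number of *caup* and *ara* UMIs in a cell, with no test, since that number chose the members. *5-HT7* pooled over cells was 44.4 CPM at 0 UMIs of *caup* and *ara* (95% exact Poisson interval 39.2 to 50.0, counting error only), 64.3 at 1 (45.0 to 89.0, 51 cells), 78.6 at 2 (51.3 to 115, 28 cells), 358 at 3 to 9 (327 to 391, 129 cells) and 637 at 10 or more (616 to 657, 429 cells). The 28 cells just inside the limit thus held *5-HT7* close to that of the 51 cells just outside it. *mirr* was 174, 182, 69.5, 42.2 and 45.6 CPM in the same 5 ranges, and *Pdfr* 240, 130, 21.2, 52.2 and 54.4 CPM. For both genes the members just inside the limit already lay below the cells just outside it.

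**Figure D4:**
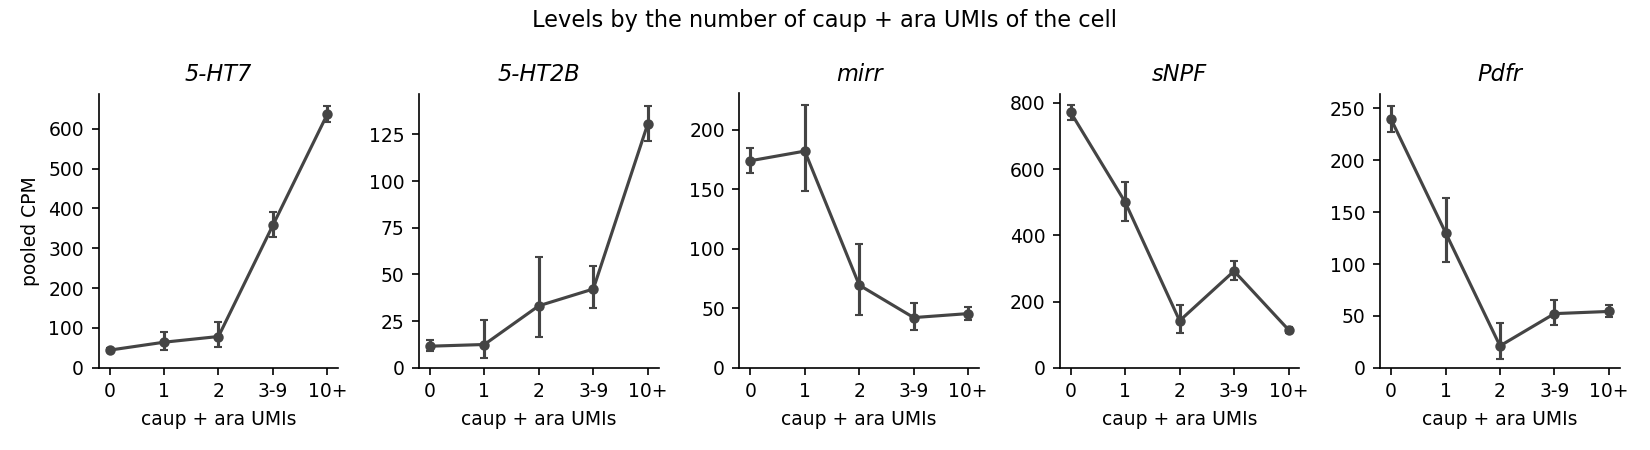
CPM pooled over the gate cells (vertical axes, linear from 0) in 5 ranges of *caup* and *ara* UMIs per cell (horizontal axes), with 95% exact Poisson intervals that cover counting error only. *5-HT7* is at 78.6 CPM at 2 UMIs and 637 CPM at 10 or more, and *mirr* at 182 CPM at 1 UMI and 69.5 CPM at 2.

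Members were also set against other GABAergic neurons, 23907 cells of the same runs with at least 3 *Gad1* UMIs and none of *Poxn*, *cv-c* or *repo*. Here 1267 genes were higher in members and 1935 lower, 17.8% and 27.2% of 7121 genes tested (edgeR as above, 45% in either direction), and 13.7% of tested genes were higher and 22.3% lower in all 7 runs. *Dh31* was 4722 ± 1229 against 326 ± 32.1 CPM, a log2 difference of 3.82 ± 0.11 (edgeR adjusted p = 5.38e-12), and was present in 95.3% ± 3.48 of members, 11.5% ± 4.04 of the other GABAergic neurons and 7.39% ± 4.89 of glia at 2000 UMIs (97.9%, 22.0% and 15.4% without thinning). The largest increases were *CG14354* (171 against 0.214 CPM), *CG14687* (4423 against 10.6 CPM), *Mcm5* (225 against 0.538 CPM), *CG32669*, *CG14545*, *DIP-iota* (CG11320 in the files, 46.1 against 0.501 CPM), *CG32091* and *Nep1*, a neprilysin peptidase gene (866 against 16.9 CPM). *CG14687*, *Mcm5* and *Nep1* were not particular to members. A UMI of them was seen in 94.4%, 70.0% and 94.5% of members and in 75.8%, 63.7% and 80.0% of caup+ara=0 cells. *Mcm5*, a gene of the DNA replication helicase, ends 1753 bases before *CG14687* on the same strand of chromosome 3R, so that its UMIs could belong to either gene. The largest decreases were *CG11294*, *CR45141*, *pb*, *CR44832*, *tey*, *Mip*, *vg* and *Orcokinin* (CG13565 in the files). Of these, *pb*, a Hox gene, was at 3.09 against 53.7 CPM and *vg*, best known from the wing, at 15.3 against 124 CPM.

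Several of these differences were shared by both classes of ring neurons and others were found in one. Because both comparisons use the same other GABAergic neurons, only their values are given side by side. In caup+ara=0 cells 1225 genes were higher and 1263 lower, 17.3% and 17.9% of 7069 tested and together 35.2% (edgeR), with 12.6% higher and 17.6% lower in all 7 runs. The transcription factor gene *D* differed by 3.88 ± 0.10 on the log2 scale in members and 3.81 ± 0.15 in caup+ara=0 cells, *Dr* by 4.19 ± 0.14 and 4.53 ± 0.18, *Lim1* by 2.21 ± 0.10 and 2.96 ± 0.13, *Oamb* by 2.62 ± 0.09 and 2.73 ± 0.17, and *Dh31* by 3.82 ± 0.11 and 3.50 ± 0.12. *5-HT7* differed by 3.71 ± 0.09 in members, whereas caup+ara=0 cells were not called at 0.05 ± 0.10 (edgeR adjusted p = 0.74). *5-HT1A* was higher in members by 0.34 ± 0.07 and lower in caup+ara=0 cells by 1.16 on the log2 scale, with 230, 75.2 and 178 CPM in members, caup+ara=0 cells and other GABAergic neurons. *mirr* was lower in members by 0.73 on the log2 scale and higher in caup+ara=0 cells by 1.30, and *sNPF* lower by 0.89 and higher by 1.68. *Pdfr* and *cry* were higher in both, by 0.52 and 1.34 in members and by 3.02 and 3.67 in caup+ara=0 cells.

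The markers listed for ring neurons beyond the gate were mixed. Against other GABAergic neurons, *pdm3* was higher in members (243 against 94.8 CPM), *toy*, *dac* and *VGAT* were lower (67.1 against 158, 25.2 against 42.3 and 175 against 256 CPM) and *Dop1R1* was not called (150 against 171 CPM). The name ring neuron therefore rests on *Poxn*, *Gad1* and *cv-c*, which chose the cells. Genes listed as Kenyon cell markers were abundant in both ring classes, with summed levels of 16702 to 24218 CPM in runs of members and 2599 to 3671 CPM in other GABAergic neurons, and most of this came from *jdp* and *mub* (13516 and 4911 CPM in members). Of the 10 listed Kenyon cell markers 5 were higher in members than in other GABAergic neurons (*jdp*, *mub*, *crb*, *prt* and *Pka-C1*), 4 were lower (*rn*, *Dop1R2*, *sNPF* and *ey*) and 1 was not called, with a median log2 difference of 0.51. In this comparison 17.8% of all tested genes were higher and 27.2% lower.

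Members varied among themselves in a set of listed genes. Had all members of a run shared 1 rate per UMI, 85.8% of members would have held an *Imp* UMI and 75.7% an *sNPF* UMI, whereas 40.4% and 29.4% did. *toy*, *vvl* and *AstC* showed gaps of the same kind, with 29.2% against 58.6%, 13.8% against 48.4% and 16.0% against 43.2%. These genes were picked from the largest gaps among 226 listed genes with a mean of at least 0.5 UMIs. Genes that were higher in members with a *VAChT* or *VGlut* UMI had gaps as large, among them *VGlut* itself (42.7% against 83.8%), *GluClalpha* (57.0% against 90.2%), *DopEcR* (56.0% against 85.8%) and *Dop2R* (71.3% against 99.7%), and what these gaps mark was not tested. *Nos* without *Imp* was seen in 244 members (41.6%), *Imp* without *Nos* in 127 (21.7%), both in 110 (18.8%) and neither in 105 (17.9%), with median depths of 8741, 13888, 14026 and 8787 UMIs. In 563 members thinned to 5000 UMIs and centred within runs, Pearson's r across cells was −0.29 between *Nos* and *Imp*, 0.32 between *Nos* and *5-HT1A*, and 0.33 between *Imp* and *mamo*. These cells share libraries and are no replicates, so that no p is given.

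In members with *Nos* alone, *5-HT1A* was at 365, 377, 358, 288, 378, 224 and 341 CPM in runs 1 to 7, and in members with *Imp* alone at 11.6, 124, 94.4, 77.7, 74.7, 97.3 and 179 CPM. These runs held 30, 64, 62, 26, 19, 34 and 9 cells with *Nos* alone. Cells with *Imp* alone were 13, 32, 35, 25, 7, 13 and 2, so that some run values rest on few cells. *DIP-delta* (CG34391 in the files) was also higher in the cells with *Nos* alone in every run, 308 against 148 CPM over all runs, and *mamo* was lower in every run, 2298 against 4232 CPM. Genes of members at large went the same way as *DIP-delta* over all runs. *caup* was at 993 against 611, *ara* at 547 against 287, *Dh31* at 5263 against 3323 and *5-HT7* at 728 against 462 CPM. *VGlut* was lower with *Nos* alone, 124 against 302 CPM. Whether the difference of *DIP-delta* goes beyond these was not tested. *AstC*, the allatostatin C peptide gene, had 13.2 CPM in members with *Nos* alone and 133 CPM in those with *Imp* alone, yet the values were 14.7 against 19.3 CPM in run 2 and 10.1 against 497 CPM in run 1, and it was at 0 in both in runs 5 to 7. Of the *AstC* UMIs of members, 61.4% came from 10 cells. The groups were formed after the values had been seen and were not tested.

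**Figure D5:**
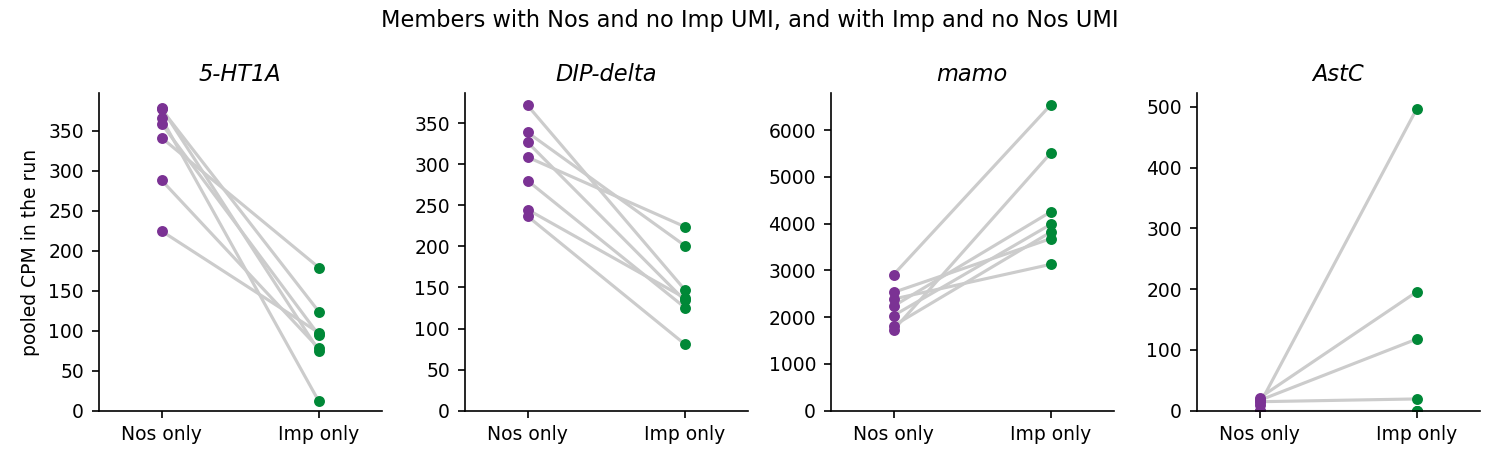
CPM per run (vertical axes, linear from 0) in members with a *Nos* and no *Imp* UMI (purple) and with an *Imp* and no *Nos* UMI (green), grey lines joining the cells of a run. *5-HT1A* and *DIP-delta* lie higher with *Nos* and *mamo* lies higher with *Imp* in all 7 runs, while *AstC* is at 0 in both sets in runs 5 to 7. The points of run 7 rest on 9 cells with *Nos* alone and 2 with *Imp* alone.

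Members with UMIs of other transmitter systems were deeper. The 452 members with a *VAChT* or *VGlut* UMI had a median of 10949 UMIs and 12.8% doublet calls, against 8275 UMIs and 1.49% in the 134 members without. *GluClalpha*, *DopEcR* and *Dop2R* were at 321, 269 and 1046 CPM in the former and 68.5, 65.4 and 148 CPM in the latter, whereas *caup*, *Dh31* and *5-HT7* were at 687, 3756 and 540 CPM against 1020, 5447 and 666 CPM. The part of doublets and free RNA in these values was not tested. Without all cells that carry either transporter, 6 runs had at least 5 cells in both classes, and 269 of 2250 tested genes passed the comparison of members with caup+ara=0 cells (edgeR), an alternative chosen after seeing the data.

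No run of members can be assigned a sleep state, and the levels by run are given beside the times of its flies. *Hr38* and *sr* are genes that neuronal activity induces. *Hr38* was at 124, 60.5, 41.5, 61.3, 8.73, 54.4 and 6.89 CPM in members of runs 1 to 7 and at 141, 67.5, 83.7, 48.8, 8.86, 87.5 and 109 CPM in caup+ara=0 cells. Run 5, with ZT20 flies alone, had the lowest value in the comparison cells and the next lowest in members, from 3 UMIs in each class, and run 7, with ZT8 flies alone, had 1 UMI in members. *sr* was higher in members, 92.1 ± 12.6 against 41.8 ± 21.9 CPM, a log2 difference of 0.91 ± 0.17 (edgeR adjusted p = 0.0013), while *Hr38* was not called at −0.41 ± 0.18 (edgeR adjusted p = 0.21). *sr* was the only 1 called of 7 tested activity-regulated transcription factors, beside 9.99% of all tested genes. The median log2 difference of this list was −0.20. *per* in members was at 17.1, 13.0, 24.8, 18.9, 34.9, 24.7 and 13.8 CPM, from 2 to 55 UMIs a run, with the highest level in run 5. Time, condition and run cannot be told apart here. The 11 listed mitochondrial genes included none that was called between the classes (edgeR), beside 9.99% of all tested genes called. *Sod* was at 582 against 595 CPM. Mitochondrial UMIs made up 4.88% to 10.0% of the UMIs of members and 4.82% to 10.5% of those of caup+ara=0 cells.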

How the data were processed

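Brains were profiled by droplet single-cell RNA-seq in 7 runs. The deposited values are raw UMI counts per gene and barcode, produced by the authors by aligning reads to BDGP6 in Cell Ranger 3.1.0. Kept barcodes had 200 or more genes and no more than 30% mitochondrial UMIs, and the classes were cut by the UMI limits given above. The study had also removed doublets and ambiguous cells by genotype, and the cells of its ZT2 wakefulness condition. These steps were not applied here, so that the 157482 kept barcodes include cells that the study left out. Flies of that condition were in run 4. The members and gene lists were chosen with earlier results of these data known.

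UMIs were summed per run and class and tested with edgeR 4.0.16 in R 4.3.3 (TMM scaling, filterByExpr, quasi-likelihood F test, class with the run as a block) over all genes that passed the filter, with Benjamini-Hochberg adjustment at 0.05. The run was the block because both classes of a run come from the same library, and runs with under 5 cells in either class were left out of a fit. The gate genes were not tested. The test was tried on simulated counts, in which 74.6% of 1.5-fold, 97.3% of 2-fold and 100% of 4-fold changes were recovered for members against caup+ara=0 cells (4882 genes), and 0.128% of unchanged genes were called. Changed genes were drawn from those with at least 20 CPM in the comparison class. All genes were given the same spread beyond counting error, and single cells were not simulated. DESeq2 1.42.0 served as an alternative, beside other scaling, filters, limits of the gate, leaving out each run, and thinning to 2000 UMIs per cell.

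Genes were named by a rule: the 15 largest differences in each direction against caup+ara=0 cells and the 8 largest against other GABAergic neurons, among genes past the threshold with 1 direction in all runs and at least 20 CPM in the higher class, together with genes of the lists. Doublets were called per run with scrublet in Scanpy 1.11.5 and kept except in the alternative without them. Its automatic threshold failed in runs 6 and 7, where that of run 5 (0.391) was used. Shares of cells have exact binomial and pooled levels exact Poisson intervals, which cover counting error only. Of 16764 gene symbols, 94.6% matched RefSeq. Cells were not joined to fly lines, so conditions were not compared.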

Additional observations from a re-analysis of the deposited data

Results flagged for a closer look

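In 47 sets of 7 run values tested for 1 run that stands apart from the rest (Dixon's test at the 95% level), 9 were past the limit, and chance gives about 1 in 20. The share of members in the ring neuron gate was 43.8% in run 4 and 54.4% to 61.5% in the other runs. Per-run log2 differences between members and caup+ara=0 cells, with 1 CPM added, stood apart for *5-HT7* in run 1 (4.25, others 3.36 to 3.64) and for *Pdfr* in run 5 (−4.17, others −2.70 to −1.63). Run 7 stood apart for *5-HT2B* (7.04, others 2.50 to 3.76), *CARPA* (CG1402 in the files; 8.34, others 2.04 to 3.21) and *scaf* (−5.84, others −2.54 to −1.37), and this run held 16 members and 9 caup+ara=0 cells. *5-HT2B* and *CARPA* had 0 UMIs in the caup+ara=0 cells of run 7 and *scaf* had 1 UMI in its members, so that these values are set by the 1 CPM added and are not measured folds. Against other GABAergic neurons, *CG11294* in run 3 was at −2.01 (others −4.88 to −3.85), *DIP-iota* (CG11320 in the files) in run 7, where the other GABAergic neurons had 0 UMIs, at 6.75 (others 4.04 to 4.94) and *Orcokinin* (CG13565 in the files) in run 3 at −5.75 (others −1.78 to −0.16). The direction was the same in all runs for each of these genes, which the naming rule required.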

How the results depend on the processing

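Between members and caup+ara=0 cells 504 genes were called. With no replicate block 287 were called, 286 of them among the 504. After thinning to 2000 UMIs 285 of 1752 tested genes were called, 232 of them among the 504, and 269, 231 of them among the 504, without cells with a *VAChT* or *VGlut* UMI, an alternative chosen after seeing the data in which 2250 genes were tested in 6 runs. The other alternatives gave 457 to 716 genes, and leaving out each run 429 to 504. Against other GABAergic neurons 3202 genes were called, and 1633 after thinning, 1557 of them among the 3202. With no replicate block 2556 were called, and leaving out each run gave 2676 to 3128. The share of members in the gate was 50.4% to 58.5% under all alternatives, 53.1% to 56.0% when a run was left out. All 541 values of named genes against caup+ara=0 cells under the alternatives kept their direction and their side of the threshold, as did 252 of 254 against other GABAergic neurons. The naming rule had picked these genes for large differences past the threshold with 1 direction in all runs, so this agreement is no independent support. Sizes against caup+ara=0 cells moved for some genes. The log2 difference of *mirr* (−1.98) was −2.93 after thinning, and that of *sNPF* (−2.47) −3.48 without cells with a *VAChT* or *VGlut* UMI. *trol* (−3.51) ranged from −4.70 under DESeq2 to −2.98 after thinning and was −4.12 without run 3. *CG30053* (−3.86) was −5.69 under DESeq2 and −4.56 without run 3. *CR32111* (4.20) was 3.40 with comparison cells of 0 or 1 *caup* and *ara* UMIs, 5.32 with comparison cells as deep as the median member, and 4.97 without run 4, and *ETHR* (3.92) was 4.70 without run 4. *CG15537* (−3.09) was −4.69 under DESeq2, −3.81 with no replicate block and −4.05 without doublets, *CG1572* (−3.08) −3.73 under DESeq2 and −3.75 without cells with a *VAChT* or *VGlut* UMI, *CG32091* (3.74) 2.85 without the same cells, and *Rrp5* (CG5728 in the files; 2.61) 3.34 after thinning. The exception among the 254 was *Orcokinin* (CG13565 in the files), with −1.47 under DESeq2 (adjusted p = 0.076) and −0.71 without cells with a *VAChT* or *VGlut* UMI (edgeR adjusted p = 0.083). The cause was not tested. Run 7, with 16 members and 9 comparison cells, limits what can be read for low genes.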
